A study of Homo sapiens with 108 samples.

Results

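A set of 10 genes of the unfolded protein response and the integrated stress response was followed in human melanoma cell lines, unirradiated and irradiated. These are the transcription factors ATF4 and DDIT3 (CHOP), their targets TRIB3, CHAC1 and ASNS, and the phosphatase subunit PPP1R15A. The others are the endoplasmic reticulum (ER) genes HSPA5, XBP1, DNAJB9 and HERPUD1. All 10 genes were chosen by name, with earlier results of these data known. Their probes were those that the array annotation ties to that single gene symbol. This gave 13 probes for 10 genes, out of 54359 probes and 18278 genes with such a probe. XBP1 had 3 probes and HERPUD1 2, and each gene is given by its brightest probe that passed the filter on dim and missing spots. That filter kept 32060 probes and 9 of the 10 genes. The ASNS probe lacked a value on 22 of 108 arrays and is described without a test.

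RNA of 6 established melanoma lines (MeWo, HMV-I and HMV-II, Colo679, 92-1 and C32TG) was hybridised to single-colour whole-genome arrays after 2 Gy of carbon ions or 2 Gy of X-rays. Cells were taken 1 h and 3 h after irradiation, and each beam had its own unirradiated (0 Gy) cells, called here the carbon-ion set and the X-ray set. Each of the 36 groups had 3 arrays, 18 per line. No label states when the unirradiated cells were taken or whether the 3 arrays are separate cultures, so tests inside 1 line measure the spread among its arrays, which may be technical. The 1 h and 3 h cells of a beam share their unirradiated cells, whereas the beams share none.

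The unfolded protein response starts from sensors in the ER membrane. PERK (EIF2AK3) phosphorylates the initiation factor eIF2, which slows translation in general and favours that of ATF4. Other eIF2 kinases that respond to lack of amino acids, viral RNA or heme deficiency lead to the same factor, hence the name integrated stress response. ATF4 and its target CHOP switch on genes of amino acid supply and, under lasting stress, genes tied to cell death. IRE1 splices the XBP1 message into that of an active factor, and cleaved ATF6 raises ER chaperones such as HSPA5. PPP1R15A (GADD34) brings a phosphatase to eIF2 and so restores translation.

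Promoter sequences are shown for the 6 members whose windows hold a searched motif, since the factors of the 2 branches are known to bind different letters; the other 4 members were left out for lack of a match, whatever their values. They are RefSeq windows of GRCh38.p14, from 250 bases before to 50 after a transcription start, in the direction of the gene. All 10 genes had at least 1 window. Searched on both strands were the C/EBP-ATF site TGATGNAA, bound by ATF4 with C/EBP partners (in 3.62% of 35116 windows of all genes), the ER stress element, which is CCAAT and CCACG with 9 bases between them (0.0769%), its second form, ATTGG and CCACG with 1 base between them (0.0541%), and the cyclic AMP response element TGACGTCA (1.85%). Capitals mark the matches. ASNS is at chr7:97872359-97872658 (minus strand), CHAC1 at chr15:40953221-40953520 (plus strand), HERPUD1 at chr16:56931892-56932191 (plus), HSPA5 at chr9:125241294-125241593 (minus), XBP1 at chr22:28800520-28800819 (minus) and PPP1R15A at chr19:48872171-48872470 (plus).
ASNS: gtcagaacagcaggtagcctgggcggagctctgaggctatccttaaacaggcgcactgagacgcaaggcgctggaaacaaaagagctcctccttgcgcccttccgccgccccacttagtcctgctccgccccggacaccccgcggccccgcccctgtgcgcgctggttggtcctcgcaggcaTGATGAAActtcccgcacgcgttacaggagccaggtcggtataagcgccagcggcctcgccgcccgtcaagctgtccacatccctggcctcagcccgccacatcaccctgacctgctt
CHAC1: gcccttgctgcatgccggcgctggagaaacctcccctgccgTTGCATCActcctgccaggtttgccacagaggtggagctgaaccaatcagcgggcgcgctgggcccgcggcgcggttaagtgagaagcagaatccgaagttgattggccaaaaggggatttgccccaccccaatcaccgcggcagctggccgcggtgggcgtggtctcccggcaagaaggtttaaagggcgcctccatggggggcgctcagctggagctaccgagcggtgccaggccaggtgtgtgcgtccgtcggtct
HERPUD1: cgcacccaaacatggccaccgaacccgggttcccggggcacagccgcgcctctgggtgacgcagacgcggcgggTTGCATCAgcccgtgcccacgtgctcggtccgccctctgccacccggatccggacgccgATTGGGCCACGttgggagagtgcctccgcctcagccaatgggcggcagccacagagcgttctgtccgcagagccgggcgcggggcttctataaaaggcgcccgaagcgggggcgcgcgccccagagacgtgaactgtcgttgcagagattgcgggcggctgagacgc
HSPA5: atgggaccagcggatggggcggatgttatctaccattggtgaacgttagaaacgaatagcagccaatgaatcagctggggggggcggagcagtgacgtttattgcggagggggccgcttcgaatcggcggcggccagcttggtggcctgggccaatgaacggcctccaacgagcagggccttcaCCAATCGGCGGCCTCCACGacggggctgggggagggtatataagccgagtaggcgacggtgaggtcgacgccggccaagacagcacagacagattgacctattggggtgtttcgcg
XBP1: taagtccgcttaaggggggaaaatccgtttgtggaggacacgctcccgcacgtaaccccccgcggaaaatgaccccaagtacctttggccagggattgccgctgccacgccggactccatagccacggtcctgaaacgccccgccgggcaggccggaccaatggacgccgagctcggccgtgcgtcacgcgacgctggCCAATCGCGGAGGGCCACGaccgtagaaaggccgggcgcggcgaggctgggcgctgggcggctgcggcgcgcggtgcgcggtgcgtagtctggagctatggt
PPP1R15A: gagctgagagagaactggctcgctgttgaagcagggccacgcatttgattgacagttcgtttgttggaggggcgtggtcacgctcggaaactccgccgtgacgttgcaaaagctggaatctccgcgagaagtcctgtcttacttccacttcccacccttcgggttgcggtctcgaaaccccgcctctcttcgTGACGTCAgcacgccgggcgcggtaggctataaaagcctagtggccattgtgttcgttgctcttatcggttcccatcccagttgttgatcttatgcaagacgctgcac
CHAC1 and HERPUD1 hold the C/EBP-ATF site in the opposite orientation, from 209 and 176 bases before the start, and ASNS holds it in the same orientation from 68 bases before. HSPA5 and XBP1 hold the ER stress element, from 66 and 52 bases before, HERPUD1 also the second form of it from 117, and PPP1R15A the cyclic AMP response element from 58. ASNS and XBP1 hold their match in 1 of 2 windows, the one shown. HERPUD1 is the member with matches of both the C/EBP-ATF and the ER stress kind. In the windows of ATF4, DDIT3, TRIB3 and DNAJB9 these letters do not occur. A match describes the letters and is not a measured binding site, and the array did not measure binding or XBP1 splicing.

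Before the changes, the state of the lines and of both unirradiated sets has to be given, since they differed widely. Of 7 annotated melanocyte genes, 5 to 7 lay above the array median in 5 lines, and 2 in HMV-I. Among the brightest 10% were 5 of them in 92-1, Colo679 and HMV-II, 6 in MeWo, 3 in C32TG and 1 in HMV-I. Of the marker lists of fibroblasts, keratinocytes and leukocytes, at most 1 gene in a line was among the brightest 10%. Above the array median lay 4 of 5 fibroblast genes in Colo679, 3 in MeWo, 2 in HMV-II and 1 in each other line. Of the keratinocyte and leukocyte lists at most 1 gene each did so in a line. No marker gene was called in any comparison across lines, where 7 melanocyte, 4 fibroblast, 1 keratinocyte and 1 leukocyte gene were measured. In the fits within a line, the carbon-ion and X-ray unirradiated sets differed in 46.1% of tested probes in HMV-I and 69.3% in MeWo, against 42.3% in C32TG, 20.9% in HMV-II, 14.5% in 92-1 and 13.5% in Colo679. What sets them apart is not given in the labels and was not tested. Results are therefore given by set, and the values across lines also without HMV-I or MeWo where these change the call.

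Unirradiated levels of the stress genes differed between lines for 7 of the 9 tested members, where 57.4% of all tested probes differed (limma's F over lines, with the 2 sets of a line as replicates; adjusted p at 0.05). Levels are log2 intensities after quantile normalization, and order lines for 1 probe but not genes against each other. CHAC1, a glutathione-degrading enzyme induced by ATF4 and CHOP, had the widest span of the tested members. Its lowest, median and highest values over the 6 unirradiated arrays were 4.63, 5.32 and 5.72 in 92-1, 2.58, 3.97 and 5.54 in HMV-I, and 1.73, 2.04 and 2.30 in MeWo. They were 0.88, 1.41 and 2.00 in HMV-II, 1.13, 1.25 and 1.28 in Colo679, and 0.80, 1.04 and 1.51 in C32TG. The 92-1 mean of 5.25 was 17.9-fold above the C32TG mean of 1.08 (limma adjusted p = 0.00166 for the differences among lines). The arrays of 92-1 and HMV-I overlapped, and the HMV-I X-ray set (mean 5.42) lay above the 92-1 carbon-ion set (4.79). The lower 4 lines also overlapped with their neighbours in the order. TRIB3, a pseudokinase that dampens AKT and ATF4 signalling, stood at 4.43 in HMV-I, 4.05 in HMV-II, 2.77 in MeWo, 2.28 in Colo679, 2.20 in 92-1 and 1.51 in C32TG (limma adjusted p = 0.0179). Its HMV-I arrays ran from 2.86 to 6.01 and enclosed all those of HMV-II.

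DDIT3, the factor CHOP, split the lines into a high and a low group, apart from HMV-I. MeWo had 5.31, Colo679 4.92 and HMV-II 4.87, against 3.43 in C32TG and 3.30 in 92-1 (adjusted p = 0.0449 in limma), with no overlap between HMV-II and C32TG. HMV-I averaged 4.91, but its 5 measured arrays ran from 3.61 to 6.25 and so spanned nearly both groups. ATF4, the central factor of the integrated stress response, was between 5.64 and 6.25 in 5 lines, and at 4.71 in C32TG, whose highest array (4.79) lay below the lowest of MeWo (5.36; limma adjusted p = 4.37e-04 over lines). C32TG thus had the lowest ATF4, TRIB3 and CHAC1 means of the 6 lines and the highest HSPA5. In the X-ray set, however, the CHAC1 mean was higher in C32TG (1.31) than in Colo679 (1.17).

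HSPA5 encodes BiP, the main chaperone of the ER and the brake on its stress sensors. In C32TG its unirradiated arrays ran from 2.20 to 2.70, above every other line. HMV-I followed at 0.97 to 1.24 and Colo679 at 0.49 to 0.97, while HMV-II was lowest at -0.47 to -0.15. The means were 2.47 in C32TG and -0.31 in HMV-II (limma adjusted p = 0.00273 over lines). The HMV-II values lie around the level of -0.41 that the filter on dim probes required of a mean, so no fold is given. The MeWo arrays ran from -0.72 to 1.36, the carbon-ion set being low and the X-ray set high. XBP1, the message that IRE1 splices, was highest in HMV-I (6.16 to 7.31) and lowest in Colo679 (3.38 to 3.81), with both lines clear of the others. Their means of 6.77 and 3.59 differed 9.06-fold (adjusted p = 7.36e-05 in limma). A dimmer XBP1 probe did not share this order, with set means of 1.57 and 1.81 in C32TG against 0.51 and 0.86 in HMV-I. DNAJB9, an ER co-chaperone that restrains IRE1, averaged 2.78 in HMV-II and 1.06 in MeWo (limma adjusted p = 0.0152), with neighbouring lines overlapping throughout the order. HERPUD1, a membrane protein of ER-associated degradation, ranged from 1.91 in HMV-I to 0.54 in MeWo and did not pass (adjusted p = 0.0608), and PPP1R15A ranged from 1.25 in MeWo to 0.06 in 92-1 and did not pass either (adjusted p = 0.102 in limma).

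ASNS, asparagine synthetase, a classical ATF4 target, was far lower in HMV-II than elsewhere. Its probe is given in deposited log2 intensity. In HMV-II the 4 measured unirradiated arrays were -1.08, -1.04, -0.99 and -0.89, with the other 2 missing. The lowest unirradiated value of any other line was 3.47, in 92-1, and the lowest in HMV-I was 5.33. The HMV-II values lie below the level of -0.41 that the filter on dim probes required of a mean, so they are read as a bound and no fold is given. The same held after irradiation. Over all 18 arrays of HMV-II the 11 measured values ran from -1.10 to -0.58, whereas the other 5 lines together ran from 3.47 to 7.13. In the same unirradiated HMV-II cells the mean ATF4 level (6.25) was the highest of the 6 lines, but its arrays overlapped with those of Colo679 (mean 6.19). In the carbon-ion set the HMV-II mean of ATF4 (6.07) lay below those of 92-1 (6.10) and Colo679 (6.09). Ordered from high to low, the HMV-II mean had rank 2 for TRIB3 and rank 4 for CHAC1. The changes of ASNS after irradiation lay between -0.37 and 0.40 over the 24 combinations of line, beam and time, 18 of them above 0; the 4 of HMV-II come from these dim values.

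**Figure D1:**
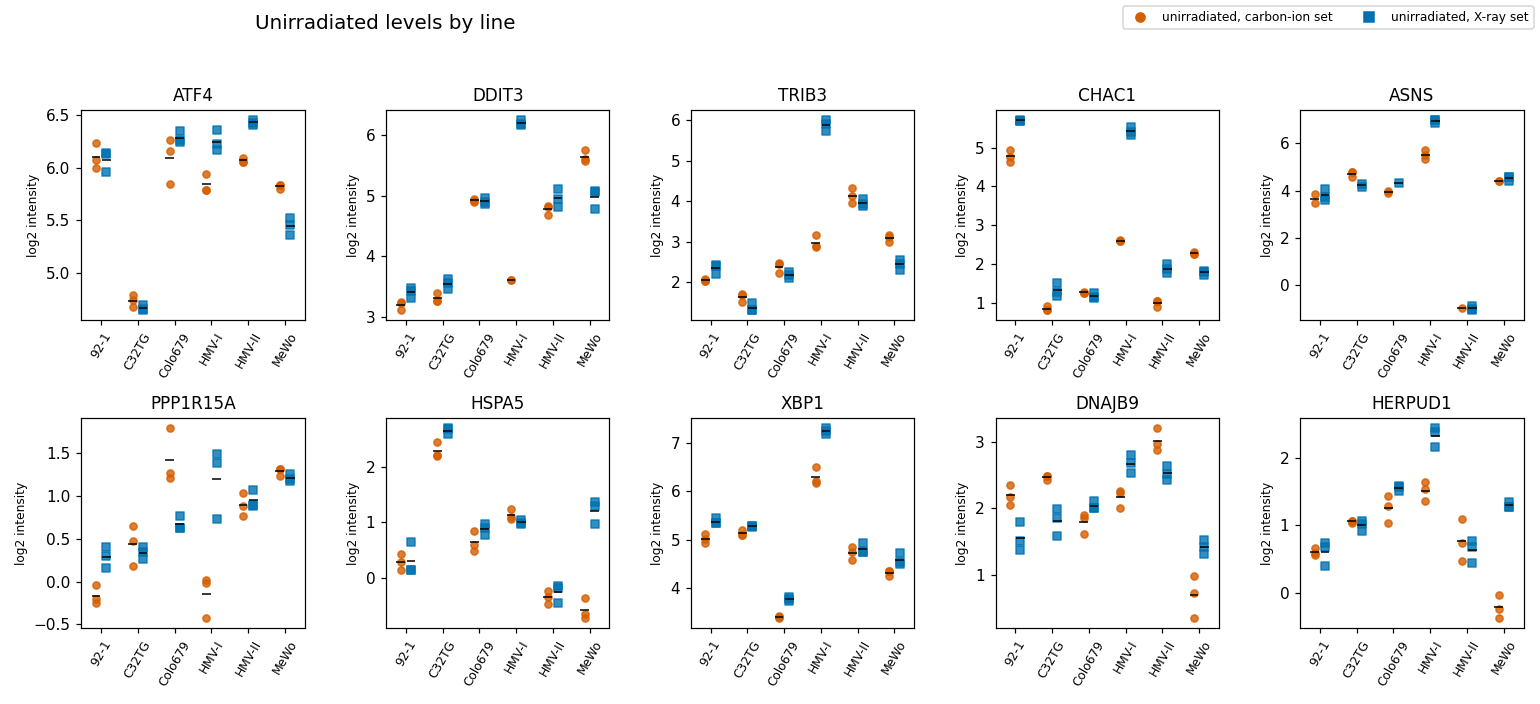
Log2 intensity (vertical axis, a range of its own in each panel) of the 10 genes in unirradiated cells of 6 lines; circles are arrays of the carbon-ion set, squares arrays of the X-ray set, and bars the mean of each set. ASNS (deposited values) is near -1 in HMV-II alone, and the sets of HMV-I stand apart for CHAC1, TRIB3 and DDIT3, those of MeWo for HSPA5 and HERPUD1.

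The unirradiated HMV-I cells of the carbon-ion set had much lower stress-gene levels than those of the X-ray set. TRIB3 read 2.86, 2.90 and 3.16 in the carbon-ion set and 6.01, 5.92 and 5.75 in the X-ray set, a difference of -2.92 ± 0.10 (SE), or 7.57-fold. CHAC1 read 2.61, 2.59 and 2.58 against 5.54, 5.34 and 5.40, a difference of -2.83, or 7.10-fold. DDIT3 was 3.61 on both measured carbon-ion arrays, the third being missing, against 6.25, 6.18 and 6.18, a difference of -2.59. No array of one set reached the other for these genes. PPP1R15A differed by -1.34, XBP1 by -0.96, HERPUD1 by -0.81, DNAJB9 by -0.50 and ATF4 itself by -0.41. All of these passed limma in HMV-I with adjusted p of at most 0.0017, so that 8 of 9 members were lower, while 23.2% of all tested probes were lower and 22.9% higher. HSPA5 stood at 0.13 higher and did not pass (adjusted p = 0.432 in limma), and ASNS, untested, differed by -1.43. The dimmer XBP1 probes stood at -0.35 (adjusted p = 0.00321 in limma) and -0.07, and the dimmer HERPUD1 probe at 0.02. The gap outlasted irradiation: for TRIB3 it was -2.37 at 1 h and -2.77 at 3 h, for CHAC1 -3.48 and -2.18, and for DDIT3 -2.77 and -2.21, again without overlap.

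The wider lists, also chosen with earlier results of these data known, showed how far this set difference went in HMV-I. Of 33 measured ATF4 and CHOP target genes outside the 10 members, 25 were lower and 3 higher in the carbon-ion set, with a median of -0.56 beside -0.01 for all tested probes. They include CTH, an enzyme of cysteine synthesis (-1.88), CEBPG, a partner of ATF4 (-1.46), the methionyl-tRNA synthetase MARS1 (-1.17) and NUPR1, a stress-induced chromatin protein (-3.23). These 4 were picked after their values were seen. ALDH18A1, PHGDH and NARS1 were the 3 higher genes. All 5 stress genes shared with the p53 response were lower, among them SESN2 (-1.86) and GADD45A (-1.99). The ER lists were mixed: 7 higher and 8 lower of 22 IRE1 and ER-associated degradation genes, and 8 higher and 6 lower of 20 ATF6 and folding genes. Of 13 genes of eIF2 kinases and eIF2 machinery, 4 were higher, among them EIF2AK3, the kinase PERK (0.53), and 1 was lower, DNAJC3 (-0.72). Beside the list counts given here, 22.9% of all tested HMV-I probes were higher and 23.2% lower. In HMV-I the melanocyte list had 3 genes higher and 1 lower between the sets, and of 4 fibroblast genes 1 was lower. Their part in the difference was not tested.

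In MeWo the members differed in both directions. HSPA5 was lower in the carbon-ion set: it read -0.72, -0.37 and -0.66 against 1.36, 1.29 and 0.96, a difference of -1.79. Its carbon-ion values lie around the level of -0.41 that the filter on dim probes required of a mean, so no fold is given. HERPUD1 read -0.03, -0.37 and -0.23 against 1.27, 1.34 and 1.27, a difference of -1.51. DNAJB9 differed by -0.73 and XBP1 by -0.27. The probes of XBP1 and HERPUD1 disagreed: a dimmer XBP1 probe was 0.57 higher (adjusted p = 7.07e-04 in limma), the other stood at 0.05, and the dimmer HERPUD1 probe at 0.34 without passing. No direction can thus be given for these 2 genes in MeWo. In the ATF4 branch DDIT3 was higher by 0.67, TRIB3 by 0.66, CHAC1 by 0.49 and ATF4 by 0.37, while ASNS, untested, differed by -0.12. By their brightest probes, 8 members passed limma within MeWo with adjusted p of at most 0.0011, 4 in each direction, where 37.5% of all tested probes were higher and 31.8% lower, so that the members' counts lie near the background. PPP1R15A differed by 0.08 and did not pass. With the values as deposited, CHAC1 (0.07, adjusted p = 0.401 in limma) and ATF4 (0.17, adjusted p = 0.167) lost their calls. TRIB3 then stood at 0.26 (adjusted p = 0.0473 in limma), DDIT3 at 0.43 and XBP1 at -0.58. Of the eIF2 list 11 of 13 were higher (median 0.56 beside 0.05 for all probes). DNAJC3 differed most, by 0.90, and EIF2AK3 was higher by 0.77, as it was higher in HMV-I too. Of the ATF4 and CHOP targets 16 of 31 were higher and 8 lower. The ER lists were mixed, with 10 higher and 10 lower of 22 IRE1 and ER-associated degradation genes and 9 higher and 5 lower of 20 ATF6 and folding genes. Of the marker lists in MeWo, 3 melanocyte genes were higher and 2 lower of 6, 2 fibroblast genes higher and 2 lower of 4, and the 1 leukocyte gene was higher by 0.77. Their part in the difference was not tested.

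**Figure D2:**
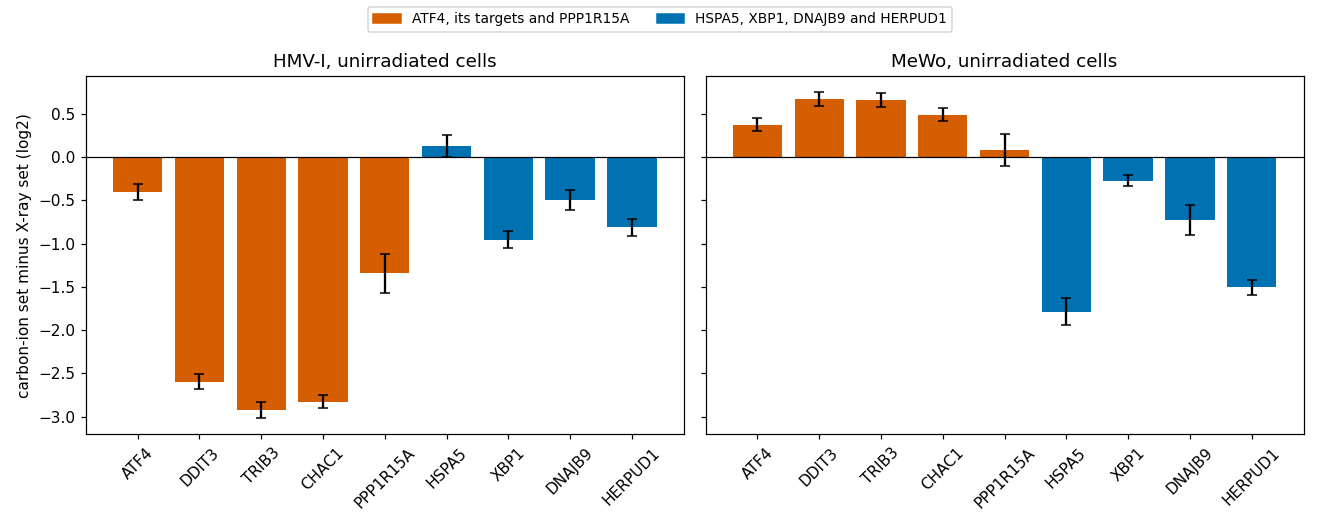
Difference between the unirradiated carbon-ion and X-ray sets (log2, vertical axis) of the 9 tested genes in HMV-I (left) and MeWo (right); bars are the difference of means of 3 arrays a set (2 for DDIT3 in the HMV-I carbon-ion set), whiskers the SE from limma. In HMV-I all but HSPA5 are lower, down to -2.92 for TRIB3, while in MeWo 4 genes are lower and 4 higher by their brightest probes; the dimmer XBP1 and HERPUD1 probes, not drawn, stand above 0 in MeWo.

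Over the 54 tests of 9 members in 6 lines, the unirradiated sets differed in 30, 9 higher and 21 lower in the carbon-ion set, where 34.4% of all such tests did, 17.3% higher and 17.2% lower. C32TG had 5 such calls, 92-1 4, HMV-II 3 and Colo679 2. The directions differed from line to line, and across lines limma called 0 of 9 members and 0% of the 32060 probes, with 1 member and 3116 probes at an unadjusted p under 0.05. That member was XBP1, lower in the carbon-ion set in 6 of 6 lines by its brightest probe (mean -0.36 ± 0.31 SD, adjusted p = 0.437 in limma). Its dimmer probes disagreed, at 0.29 with 5 of 6 lines higher (adjusted p = 0.466 in limma) and at -0.20 with 5 of 6 lower (adjusted p = 0.505).

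At 1 h after carbon ions DDIT3 fell and TRIB3 rose, both by small amounts. The changes of DDIT3 were -0.04 in 92-1, -0.26 in C32TG, -0.15 in Colo679, -0.31 in HMV-I, -0.17 in HMV-II and -0.24 in MeWo. All 6 lines were lower, with a mean of -0.20 ± 0.09 (SD, n = 6 lines), 1.15-fold lower than in the unirradiated cells (limma adjusted p = 0.0128). With median centring this call was lost (-0.13, adjusted p = 0.0677), and without the arrays numbered 1 too (adjusted p = 0.0626 in limma). TRIB3 changed by 0.23, 0.15, 0.13, 0.39, 0.01 and 0.19 in the same order of lines, higher in all 6, with a mean of 0.18 ± 0.12 (adjusted p = 0.0344 in limma). That call was lost without 92-1, Colo679, HMV-I, MeWo or the arrays numbered 1 or 2, with adjusted p of up to 0.309, where the value without the arrays numbered 1 was 0.11. These were 2 of 9 members called, 1 in each direction, beside 10.7% of all tested probes, of which 4.67% were higher and 6.03% lower. The median change of the 9 was -0.07 and that of all probes 0.01.

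CHAC1 had a larger mean change than either at 1 h, but a spread between lines that kept it from passing. It stood at -0.90 in HMV-I, -0.58 in 92-1 and -0.30 in HMV-II, and between -0.08 and 0.02 in MeWo, Colo679 and C32TG, with a mean of -0.32 ± 0.36 (adjusted p = 0.0749 in limma). In HMV-I the arrays went from 2.61, 2.59 and 2.58 to 1.72, 1.58 and 1.80, and in 92-1 from 4.63, 4.77 and 4.95 to 4.24, 4.18 and 4.21, with no overlap in either. Both falls passed within their line (adjusted p of at most 0.0011 in limma), where 4.38% of all probes passed in HMV-I and 3.51% in 92-1. XBP1 stood at -0.13 ± 0.09, lower in 6 of 6 lines (limma adjusted p = 0.0662), and a dimmer probe fell by 0.21 (SD 0.15; adjusted p = 0.0427), whereas the third stood at 0.08, higher in 3 lines and lower in 3. ATF4, HSPA5, DNAJB9, HERPUD1 and PPP1R15A had means between -0.19 and 0.14 and did not pass.

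At 3 h after carbon ions CHAC1 rose in every line. Its changes were 0.30 in 92-1, 0.07 in C32TG, 0.59 in Colo679, 1.02 in HMV-I, 0.51 in HMV-II and 0.58 in MeWo, with a mean of 0.51 ± 0.32 (SD, n = 6 lines), or 1.42-fold (adjusted p = 0.00971 in limma). Without HMV-I it was 0.41 and without MeWo 0.50, and it passed both times. In HMV-I the arrays reached 3.64, 3.63 and 3.57, above all unirradiated arrays of that set, and in Colo679 they reached 1.77, 2.03 and 1.76 from 1.25, 1.26 and 1.28. In C32TG, the line with the smallest change, 0.90, 0.87 and 0.96 overlapped with 0.92, 0.81 and 0.80.

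TRIB3 rose by 0.20 ± 0.12 at 3 h after carbon ions, higher in 6 of 6 lines (adjusted p = 0.0343 in limma). This call was lost without 92-1, HMV-I, HMV-II, MeWo or the arrays numbered 1, and with the values as deposited (0.14, adjusted p = 0.129). CHAC1 and TRIB3 were the 2 of 9 members called, both upward, beside 13.4% of all tested probes, 6.43% higher and 6.98% lower. DDIT3, down at 1 h, stood at 0.15 ± 0.08, higher in 6 of 6 lines, just short of passing (adjusted p = 0.0506), and was called with median centring (0.24, adjusted p = 0.00918 in limma). ATF4 stood at 0.11 ± 0.14 (limma adjusted p = 0.188) and was called with median centring too (adjusted p = 0.0182). HSPA5 (-0.18), DNAJB9 (-0.14) and XBP1 (-0.04) did not pass. PPP1R15A also missed the threshold, with a mean change of 0.15 ± 0.16 (adjusted p = 0.137 in limma). Its change was negative in MeWo (-0.16) and positive in the other lines. Without MeWo it was called, as given below among the flagged results, so a rise of PPP1R15A was not confined to X-rays. The probes of HERPUD1 disagreed: the brighter stood at -0.25 ± 0.28, lower in 5 of 6 lines (limma adjusted p = 0.084), whereas the dimmer rose by 0.20 ± 0.06 in 6 of 6 lines (adjusted p = 0.0272), so that no direction can be given for the gene.

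After X-rays, no member passed at 1 h, and PPP1R15A was the member that passed at 3 h. At 1 h limma called 0 of 9 members beside 1.15% of all probes (0.368% higher, 0.786% lower), with 3 members at an unadjusted p under 0.05. DDIT3 stood at -0.14 ± 0.10, lower in 6 of 6 lines (adjusted p = 0.159 in limma), and CHAC1 at -0.20 ± 0.22, with the lowest value, -0.53, in 92-1. At 3 h PPP1R15A changed by 0.27 in 92-1, 0.08 in C32TG, 0.33 in Colo679, 0.90 in HMV-I, 0.51 in HMV-II and 0.25 in MeWo. The mean was 0.39 ± 0.29, or 1.31-fold (adjusted p = 0.0187 in limma), 1 of 9 members beside 7.15% of all probes (2.96% higher, 4.19% lower). HMV-I went from 1.39, 1.49 and 0.73 to 2.03, 2.23 and 2.04 and HMV-II from 0.90, 0.88 and 1.07 to 1.57, 1.38 and 1.42, both without overlap. In Colo679 and C32TG the arrays overlapped. The call was lost without HMV-II (0.37, adjusted p = 0.0672 in limma). CHAC1 stood at 0.20 ± 0.24 and TRIB3 at 0.14 ± 0.11 (6 of 6 lines higher), and neither passed (adjusted p = 0.137 and 0.136 in limma).

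**Figure D3:**
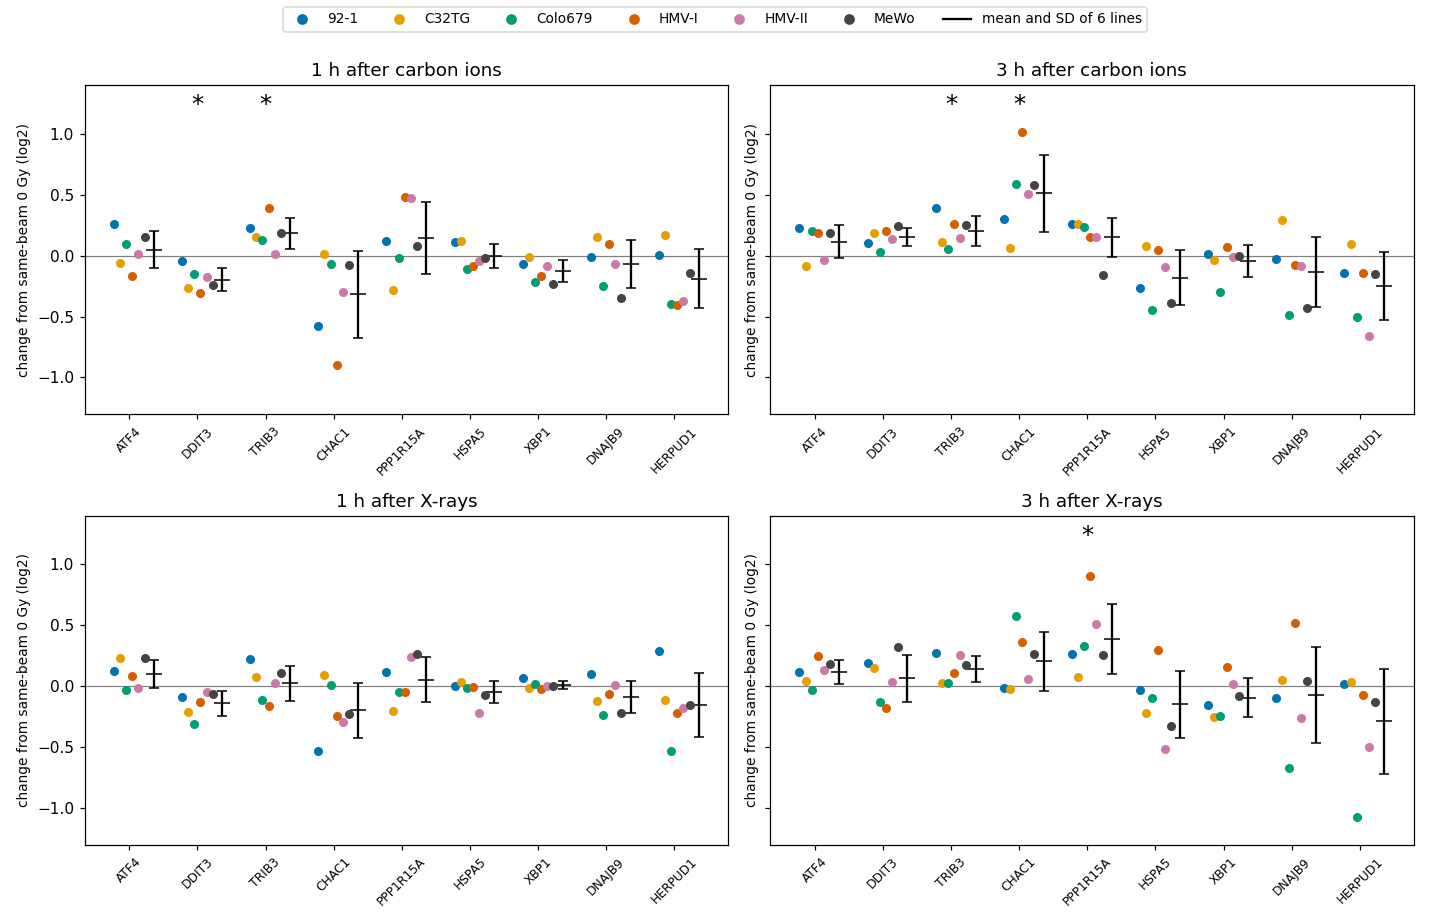
Change of the 9 tested genes from the unirradiated cells of the same beam (log2, vertical axis) in each of 6 lines (coloured points) at 1 h and 3 h after carbon ions (top) or X-rays (bottom); black marks are the mean and SD over lines, and stars mark limma calls over all probes. CHAC1 is at or above 0.07 in all lines 3 h after carbon ions, and PPP1R15A at or above 0.08 in all lines 3 h after X-rays.

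Carbon ions and X-rays were not told apart for any member. Limma called 0 of 9 members and 0% of all probes at 1 h and 0% at 3 h, while 2 members at each time had an unadjusted p under 0.05. The change of CHAC1 at 3 h was greater after carbon ions in 6 of 6 lines, by 0.31 ± 0.24 (95% interval 0.12 to 0.49, unadjusted for the number of probes), with adjusted p = 1.00 in limma. For PPP1R15A at 3 h it was smaller after carbon ions in 5 of 6 lines (-0.24 ± 0.33, 95% interval -0.47 to -0.01; adjusted p = 1.00 in limma). The unirradiated level of CHAC1 itself was lower in the carbon-ion set in 4 of 6 lines, by as much as -2.83 in HMV-I, and beam and set cannot be told apart in these contrasts of changes. For ATF4 at 3 h the difference was 0.00 ± 0.15, with an interval of -0.15 to 0.15.

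Between 1 h and 3 h, averaged over the beams, DDIT3 and CHAC1 were the 2 of 9 members called, both upward, beside 4.51% of all probes, with 2.51% of all probes upward. DDIT3 was 0.28 ± 0.11 higher at 3 h (adjusted p = 0.00621 in limma), with values of 0.18 to 0.43 in 6 of 6 lines. CHAC1 was 0.61 ± 0.41 higher (adjusted p = 0.0167 in limma), with 0.57 to 1.26 in 5 lines and -0.03 in C32TG. For TRIB3 the difference between times was 0.07 ± 0.08 (adjusted p = 0.269 in limma). These differences rest on irradiated arrays only, so time in culture and time after irradiation cannot be told apart.

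**Figure D4:**
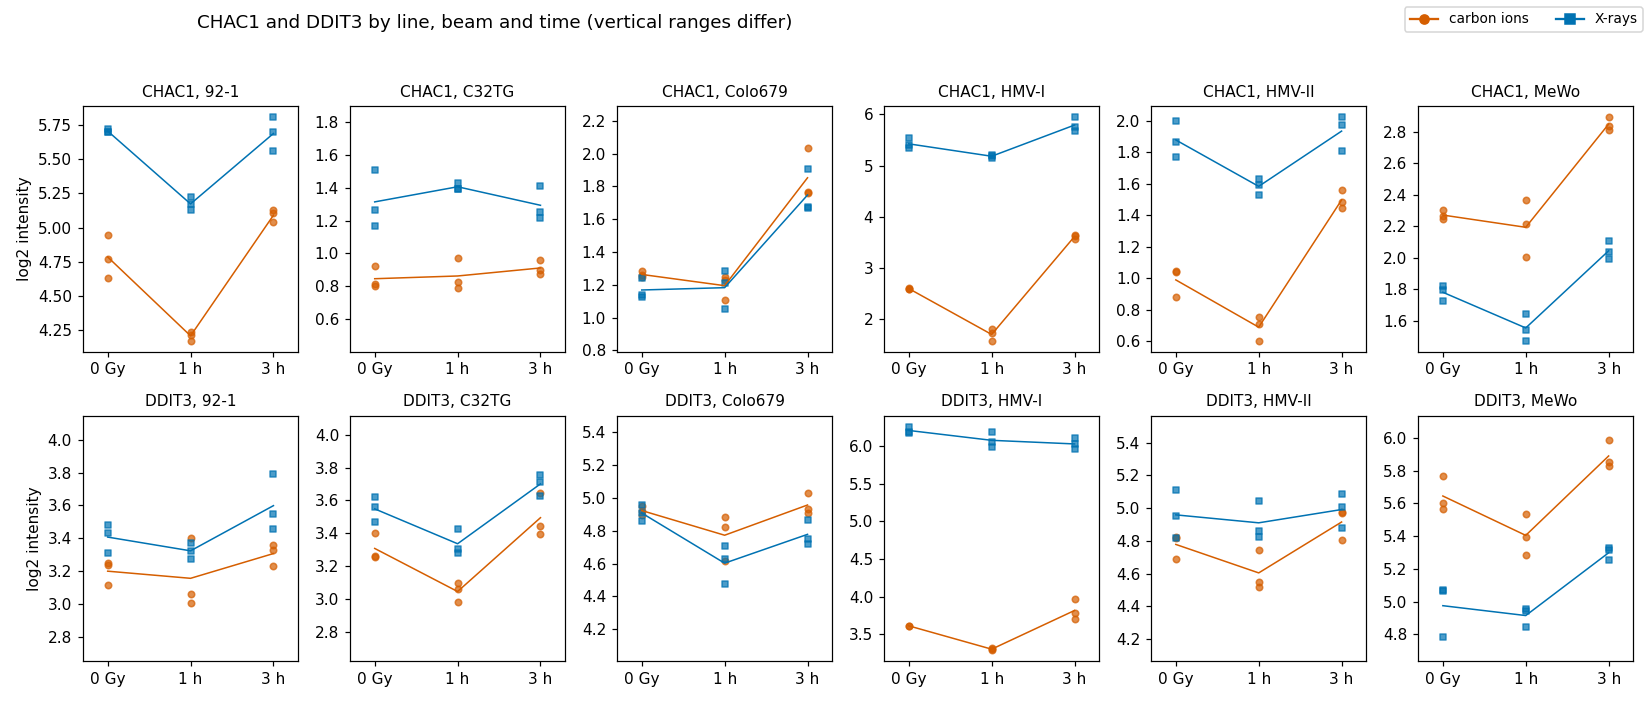
Log2 intensity (vertical axis, a range of its own in each panel) of CHAC1 (top) and DDIT3 (bottom) in unirradiated cells and 1 h and 3 h after 2 Gy, by line; points are single arrays and lines join the group means, carbon ions as circles and X-rays as squares. CHAC1 in HMV-I after carbon ions goes from a mean of 2.60 to 1.70 and then 3.61, and its carbon-ion arrays in C32TG lie between 0.79 and 0.97.

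Within Colo679 the brightest probes of HERPUD1, DNAJB9 and XBP1 fell at 3 h after both beams, and CHAC1 rose. After carbon ions HERPUD1 fell from 1.43, 1.29 and 1.03 to 0.84, 0.64 and 0.76, and after X-rays from 1.51, 1.59 and 1.57 to 0.57, 0.60 and 0.28, changes of -0.50 and -1.07. DNAJB9 changed by -0.49 and -0.67, and XBP1 by -0.30 and -0.24. HSPA5 changed by -0.45 after carbon ions, and by -0.10 after X-rays without passing. CHAC1 rose by 0.59 and 0.58 in the same cells. All but the HSPA5 value after X-rays passed limma within Colo679 (adjusted p of at most 0.034), 5 of 9 members after carbon ions and 4 of 9 after X-rays, beside 17.9% and 18.9% of all probes. The dimmer probes went the other way without passing, at 0.20 and 0.12 for HERPUD1 and at 0.02 and 0.27, and 0.17 and 0.21, for XBP1, so the falls hold for 1 probe of each. The ER lists went both ways: of 20 ATF6 and folding genes in Colo679 3 were higher and 0 lower after carbon ions, and 4 higher and 3 lower after X-rays. Of 22 IRE1 and ER-associated degradation genes 2 were higher and 1 lower after carbon ions, and 2 higher and 3 lower after X-rays. In HMV-I after X-rays DNAJB9 rose by 0.52, PPP1R15A by 0.90 and CHAC1 by 0.37, and no member passed downward there, beside 14% of all probes, 7.68% higher and 6.29% lower.

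Over all 54 such tests, 7 were called at 1 h after carbon ions, 1 up and 6 down, beside 5.12% of all probe tests (1.91% up, 3.21% down). At 3 h there were 14, 9 up and 5 down, beside 12.9% (6.47% up, 6.39% down). After X-rays there were 2 at 1 h, 1 up and 1 down, beside 1.8% (0.607% up, 1.19% down). At 3 h after X-rays there were 10, 5 up and 5 down, beside 8.42% (4.28% up, 4.14% down). With the arrays numbered 1, 2 or 3 left out, the calls after carbon ions numbered 2, 1 and 1 at 1 h and 6, 3 and 6 at 3 h. After X-rays they numbered 2, 0 and 1 at 1 h and 6, 4 and 6 at 3 h. The shares of all probes called with these arrays left out are not given. CHAC1 alone gave 5 of the 9 rises at 3 h after carbon ions, in every line but C32TG. A test of whether the change differs between lines, with the beams as separate values, called 0 of 9 members at 1 h (0.0374% of all probes) and 0 of 9 at 3 h (0.197%), with 4 and 3 members at an unadjusted p under 0.05 in limma. HERPUD1 at 3 h came nearest (adjusted p = 0.182), followed by CHAC1 (adjusted p = 0.272 in limma).

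The other genes of the pathway were taken from lists by role, which were chosen with earlier results of these data known. Across lines, of 13 genes of eIF2 kinases and eIF2 machinery, EIF2AK3 alone was called, rising by 0.20 ± 0.09 at 3 h after carbon ions in 6 of 6 lines (adjusted p = 0.0233 in limma). Of 33 ATF4 and CHOP targets, 3 rose at 1 h after carbon ions: PYCR1 of proline synthesis (0.14), the cystine transporter SLC7A11 (0.19) and CTH (0.19). At 3 h 3 rose: SLC7A11 (0.18), the amino acid transporter SLC7A5 (0.24) and the AP-1 repressor JDP2 (0.25). After X-rays 0 rose at 1 h and 1 at 3 h, PYCR1 (0.19), and 0 fell in any of the 4 comparisons. Beside these counts, 4.67% and 6.43% of all probes were higher at 1 h and 3 h after carbon ions, and 0.368% and 2.96% after X-rays. The list medians were 0.02 and 0.08 at 1 h and 3 h after carbon ions and 0.01 and 0.05 after X-rays, beside 0.01, 0.00, 0.01 and 0.00 for all probes.

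The ER genes of the lists that passed went both ways. Of 22 IRE1 and ER-associated degradation genes, SSR2, a subunit of the translocon-associated complex, fell by 0.40 (SD 0.21) at 3 h after carbon ions, and 0 were called in the other 3 comparisons. Of 20 ATF6 and folding genes, ATF6B, a relative of ATF6, rose at 1 h (0.31) and 3 h (0.26) after carbon ions and at 3 h after X-rays (0.23), and MBTPS2, a protease that releases ATF6, rose at 1 h after carbon ions (0.17). The disulfide isomerases P4HB and PDIA3 fell by 0.41 and 0.29 at 3 h after carbon ions, in 5 of 6 lines each, where 6.98% of all probes were lower. Of 5 stress genes shared with the p53 response, 3 and 4 rose at 1 h and 3 h after carbon ions and 2 and 4 after X-rays, beside the shares of higher probes just given, with a median of 0.89 at 3 h after carbon ions and 0.77 after X-rays.

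The order of the lines was not the same for CHAC1 and for the p53-shared genes. At 3 h after carbon ions HMV-I had the largest change of CHAC1 (1.02), but GADD45A, a stress sensor induced by DNA damage, stood at 0.17 there, ATF3, a stress factor downstream of ATF4 and of p53, at 0.27 and SESN2, a regulator of growth signalling, at 0.44. In C32TG CHAC1 stood at 0.07, beside 1.35 for GADD45A, 1.49 for ATF3 and 1.79 for SESN2. MeWo was like HMV-I, with 0.58 for CHAC1 and 0.07, 0.26 and 0.29 for the other genes in that order. Colo679 and HMV-II had CHAC1 changes near that of MeWo, at 0.59 and 0.51. In these lines, however, GADD45A stood at 0.82 and 0.90 and SESN2 at 1.45 and 1.10. In 92-1 CHAC1 stood at 0.30, beside 2.03 for GADD45A and 1.36 for SESN2. The contrast of C32TG with HMV-I and MeWo thus did not hold over all lines. It was noticed after the values were seen and is given as a description.

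Over the 24 changes (6 lines, 2 beams and 2 times, with 1 h and 3 h sharing controls), the genes most like TRIB3 among 16722 named probes were DEAF1 (Pearson r = 0.79), SDHC (0.76) and USP45 (0.75). Those most like HSPA5 were UBE2Q2 (0.79), ZNF445 (0.77) and CWC27 (0.77). Among the members, HSPA5 was nearest to DNAJB9 (0.54, above 97.1% of the named probes) and TRIB3 to DDIT3 (0.29, above 84.6%). HSPA5 against DDIT3 gave -0.44 (above 6.52%). These correlations describe changes that share arrays and array-wide scaling.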

How the data were processed

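The authors deposited spot intensity on a linear scale for 108 single-colour arrays, 54359 probes each; the software behind it is not given in the sources used here. Array medians ran from 1.02 to 1.32, missing values from 1000 to 8034 per array, and replicate arrays correlated with r of 0.987 to 0.998. Values were taken to log2. Probes were kept with at most 10% missing, a mean above the 40th percentile and a value in every group, and the 32060 kept were quantile-normalized. Limma (version 3.58.1, R 4.3.3; lmFit, eBayes with trend) tested 1 value per line across 6 lines, lines by F, and the 18 arrays of each line for probes with at least 2 values a group, two-sided, with Benjamini-Hochberg adjustment over all tested probes at 0.05. The fit across lines was tested on simulated data, for 3 h after carbon ions only. The line-to-line spread added there was smaller than the observed one. Fits between lines and within a line were not scored in this way. Named are all members and, from each list, up to 3 called genes per direction and comparison, beside genes said to be picked later. Members and lists were chosen with earlier results of these data known. The median of all probes moved by less than 0.1 under each scaling. Of the probes, 23472 had 1 gene symbol, 905 several and 29982 none, and 23434 matched RefSeq. Alternatives covered scaling, the level filter, probe choice, left-out lines and replicates, the fit on all arrays and a replicate block.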

Additional observations from a re-analysis of the deposited data

Results flagged for a closer look

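Among 36 groups of 6 line values (9 genes, 4 comparisons), 2 had a line whose gap to the next exceeded Dixon's 95% critical share of the range, and chance flags about 1 group in 20. XBP1 changed by -0.30 in Colo679 at 3 h after carbon ions, where the next lowest line, C32TG, stood at -0.03, while its dimmer probes stood at 0.02 and 0.17 in Colo679. PPP1R15A stood at -0.16 in MeWo at 3 h after carbon ions, where the other 5 lines lay at or above 0.15, and without MeWo its mean of 0.21 passed (adjusted p = 0.0345 in limma).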

How the results depend on the processing

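No member value changed sign while called. Over the members' values and alternatives, 610 kept their side of the threshold, 49 gained a call and 16 lost one, and the cause was not tested. The call of CHAC1 at 3 h after carbon ions and those of CHAC1 and DDIT3 between times held under every alternative run. Counts of members called that moved by over 1.5 times were, with median centring, 4 at 3 h after carbon ions and 2 at 3 h after X-rays. With deposited values they were 1 for the change at 3 h between lines, and, within lines, 4 at 1 h after carbon ions and 1 at 1 h after X-rays. With no filter on level they were 1 at 1 h after carbon ions across lines and 1 within lines at 1 h after X-rays. Rises were 48.0% of all calls at 3 h after carbon ions with quantile normalization, 76.5% with median centring and 38.0% as deposited. A fit on all arrays, without the spread between lines, called 5 and 6 members at 1 h and 3 h after carbon ions, 2 and 7 after X-rays, 1 for the beams at 3 h, 4 between times and 6 between unirradiated sets. For this fit, the replicate block and the left-out lines or numbers below, the share of all probes called is not given. The counts thus cannot be set against a background.

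The deviations of same-numbered arrays correlated from -0.402 to 0.429 (mean 0.032), so not every pair deviated together and the numbers were not taken as pairs. As a hint from the data, 83 of 108 arrays lay closer to their own number, 17 of 18 in MeWo and 16 of 18 in HMV-II and Colo679. With a replicate block the all-array counts were 5, 6, 3, 7, 1, 5 and 6 in the same order.

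Leaving out 1 line or replicate number in turn gave 0 to 5 members at 1 h after carbon ions, 1 to 3 at 3 h, 0 to 1 at 3 h after X-rays, 2 to 3 between times and 6 to 7 for unirradiated levels. Within lines, leaving out a replicate number gave 1 to 2 and 3 to 6 calls at 1 h and 3 h after carbon ions, where all arrays gave 7 and 14, and 0 to 2 and 4 to 6 after X-rays, where they gave 2 and 10. The number of arrays limits the precision: for 3 h after carbon ions, the 95% interval had a median half-width of 0.13 over probes.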
